A study of Mus musculus with 6 samples.

Results

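Recently T cell receptor (TCR)-stimulated regulatory T (Treg) cells are described here, 738 of the 10685 cells of the series. They were chosen from the raw counts of unique molecular identifiers (UMIs, which mark single captured RNA molecules) as cells with at least 200 genes, under 10% mitochondrial UMIs and no UMI of Cd79a, Lyz2 or Ccl5, markers of B cells, of myeloid cells and of a separate Treg state. They also had at least 3 UMIs, from at least 2 genes, of Il1r2 (a decoy receptor for interleukin-1), Tnfrsf9 (the costimulatory receptor 4-1BB), Cd83 (an activation marker), Egr2 (a TCR-induced transcription factor), Bcl2a1d (an anti-apoptotic Bcl-2 relative) and Rgs16 (a regulator of G protein signalling). These 738 cells are called stimulated cells below. They were compared with 9424 other cells, which passed the same limits on genes, mitochondrial UMIs, Cd79a and Lyz2. Since the 6 genes chose the cells, their own levels are description only and they are left out of every comparison.

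The cells were sorted by enhanced green fluorescent protein (EGFP) from spleens of C57BL/6 mice aged 18 to 21 weeks and treated with tamoxifen, and were profiled by droplet-based 3′ single-cell RNA sequencing. Of 6 samples, 3 were Bach2fl/fl Foxp3EGFP-Cre-ERT2 (cKO) and 3 were Bach2+/+ Foxp3EGFP-Cre-ERT2 (WT), so that all mice carried the tamoxifen-activated Cre, expressed from the Foxp3 locus and hence in Treg cells, and all received tamoxifen. The tamoxifen dose and timing, and whether a sample was 1 animal or a pool, are not given in the sources used here. The table held 6 sets of cells by barcode suffix, but no name tied a set to a sample: the cKO and WT samples were therefore not compared, the sets are not replicates of a group, and no p-value is given.

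Treg cells restrain immune responses and depend on the transcription factor Foxp3. A Treg cell that meets its antigen signals through the TCR to calcium and NFAT, to MAP kinases and AP-1, and to NF-kB, and these induce early factors such as the Egr and Nr4a families, then surface receptors and secreted factors. Unstimulated Treg cells that recirculate through lymphoid organs keep Klf2 and its target S1pr1, which permit exit from tissue, and the lymph node homing receptor Ccr7. BACH2 is a repressor that binds sites also used by AP-1 factors, and it is known to restrain TCR-driven effector programmes in Treg cells.

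Stimulated cells were found in every barcode set, as 128, 110, 99, 143, 98 and 160 cells in sets 1 to 6. They made up 5.57 to 10.2% of the compared cells of a set, with a median of 6.84%, and 7.26% of all compared cells (95% exact Clopper-Pearson interval 6.77 to 7.78%). The interval of set 6 (8.77 to 11.8%) lay above those of sets 1, 2, 3 (4.55 to 6.74%) and 5. That of set 4 (7.27 to 10.0%) lay above those of sets 3 and 5. Because the rule needs 3 UMIs, this share depends on depth. Stimulated cells had a median of 2596.5 UMIs and 1141.5 genes, against 2054 UMIs and 907 genes in other cells. When each cell was thinned at random to 1000 UMIs, the rule was met by 2.10 to 2.60% of the cells of a set (231 of 9859 cells, 2.34%, 2.05 to 2.66%). These shares rested on 34 to 42 cells per set, and the intervals of all 6 sets overlapped. All intervals here and below cover counting error only. Of all barcodes, 63 occurred in more than 1 set, and 5 stimulated cells carried one of them. Stimulated cells held 2325234 UMIs in all and other cells 21595581. Mitochondrial UMIs made up 1.83% of UMIs in both groups. Ribosomal protein genes made up 31.2% of UMIs in stimulated cells and 34.7% in other cells. The 2% of cells with the most UMIs were more frequent among stimulated cells, at 4.08 to 12.1% per set against 1.35 to 1.90% of other cells.

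**Figure D1:**
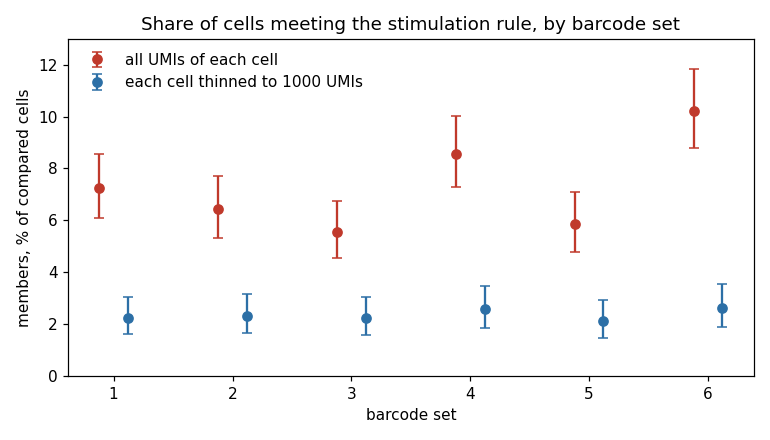
Share of compared cells that meet the rule (y axis, %) in each of the 6 barcode sets (x axis), from all UMIs of each cell (red) and after thinning each cell to 1000 UMIs (blue), with 95% exact Clopper-Pearson intervals. The unthinned shares run from 5.57 to 10.2% and the thinned shares from 2.10 to 2.60%.

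Among the defining genes, Tnfrsf9 had a UMI in 503 stimulated cells, Cd83 in 485, Bcl2a1d in 472, Il1r2 in 302, Rgs16 in 227 and Egr2 in 138. Most stimulated cells carried a few of them: 309 cells had UMIs of 2 genes, 262 of 3, 119 of 4, 41 of 5 and 7 cells of all 6. The sum of the defining UMIs was 3 in 224 cells, 4 in 125, 5 to 7 in 222 and 8 or more in 167, with a median of 5 and a highest value of 74. Just outside the rule lay 411 cells with 1 UMI of each of 2 genes, 99 cells with 3 or more UMIs of a single gene, and 188 cells that met the rule but carried a Ccl5 UMI. Levels are given in CPM (UMIs of a gene per 1000000 UMIs of the summed cells). Tnfrsf4 stood at 1106 CPM in the 224 stimulated cells with a sum of 3, against 767 CPM in the 411 cells just below and 1347 CPM in the 99 cells with a single gene. Klf2 stood at 210 CPM in the 224 cells, against 333 and 212 CPM in these outside cells.

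The cells carried T cell and Treg markers. The T cell genes Cd3d, Cd3e, Cd3g and Cd4 together stood at 3890 to 4565 CPM over the sets of stimulated cells, against 3107 to 4019 CPM in other cells. The gene of the Treg transcription factor Helios, Ikzf2, had 962 to 1290 CPM in stimulated cells, with a median of 1208, and 862 to 1137 CPM in other cells, with a median of 1025. Foxp3 (ENSMUSG00000039521.13, a protein-coding gene on the plus strand of mm10 chromosome X, bases 7573644 to 7595245) was scarce in both. It had 8.38 to 30.6 CPM in stimulated cells (median 18.3) and 19.5 to 23.4 CPM in other cells (median 22.5), a log2 ratio of -0.35 that was lower in 4 of 6 sets. A Foxp3 UMI was seen in 5.15% of stimulated cells and 4.87% of other cells, beside 3.47% of the 518 cells left out for a Cd79a or Lyz2 UMI, whose median depth was 2263.5 UMIs. Those cells are no Foxp3-free background, since 70.7% of them carried an Ikzf2 UMI, against 91.9% of stimulated and 77.7% of other cells. Bach2 (ENSMUSG00000040270.16, a protein-coding gene on the plus strand of mm10 chromosome 4, bases 32238804 to 32586108), the gene targeted in the cKO, had 6.80 to 48.6 CPM in stimulated cells (median 18.3) and 18.8 to 36.6 CPM in other cells (median 29.8). Its log2 ratio was -0.25, and the sets overlapped. Which part of Bach2 is flanked by loxP sites is not given in the sources used here, so a 3′ UMI count does not check the genotype labels.

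Markers of 6 other cell types were summed in both groups. Of 8 B cell markers in the table, all were detected, summing to 469 to 602 CPM in stimulated cells against 252 to 370 CPM in other cells. Most of this was Cd74, the invariant chain of MHC class II, at 447 CPM in stimulated and 208 CPM in other cells. The defining B cell gene Ms4a1 was low, at 0.43 CPM in stimulated and 1.48 CPM in other cells. Of 6 dendritic cell markers, Itgax, Flt3, Cd209a and Batf3 were at 0 in stimulated cells, but stood at only 0.139 to 0.278 CPM in other cells. The detected markers Zbtb46 (4.30 against 1.53 CPM) and Xcr1 (0.86 against 0.60 CPM) were higher in stimulated cells. The list summed to 3.40 to 6.70 CPM against 1.68 to 4.42 CPM. Of 11 myeloid markers, 10 were detected and Itgam was at 0 (0.0926 CPM in other cells), with sums of 483 to 619 CPM against 454 to 554 CPM. Of 9 CD8 T and NK cell markers, 7 were detected, with sums of 83.8 to 173 CPM in stimulated against 67.3 to 122 CPM in other cells. Cd8a and Gzma were at 0, against 0.324 and 1.48 CPM in other cells. Nkg7 (108 against 62.1 CPM), Klrb1c (3.01 against 0.417 CPM) and Eomes (1.72 against 0.741 CPM) were higher in stimulated cells. Cd8b1, Klrd1, Klrk1 and Prf1 were not higher. The 6 markers of activated conventional CD4 T cells summed to 212 to 308 CPM against 135 to 166 CPM, most of it Tnfsf8 (194 against 99.5 CPM). Also higher in stimulated cells were Cd40lg (40.9 against 27.0 CPM), Il4 (11.6 against 4.54), Ifng (9.46 against 4.68) and Il21 (0.86 against 0.278). Il2 was not higher (7.31 against 8.80 CPM). Of 5 erythroid markers, 4 were detected and Alas2 was at 0, with sums of 3.33 to 286 CPM in stimulated and 2.58 to 3958 CPM in other cells, of which 4 had over 50% erythroid UMIs.

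For each gene, UMIs were summed per set, and the log2 ratio of stimulated over other cells was taken within sets and combined over them (Mantel-Haenszel). A gene was called higher or lower when the ratio was at least 1.5-fold and had the same direction in 6 of 6 sets. Of 7391 genes with at least 200 UMIs over both groups, 411 were higher (5.56%) and 215 lower (2.91%) in stimulated cells. The median log2 ratio of all measured genes was 0.07, and relative to that median gene the counts were 315 higher and 274 lower. Without the deepest 2% of cells and cells with a UMI of Cd8a, Hbb-bs, Cd79b or Fcer1g, markers of other cell types, 352 genes were higher and 176 lower. Of these, 261 and 133 were also among the 411 and 215. In 6.12% of measured genes every set of stimulated cells lay above every set of other cells, and in 2.98% every set lay below.

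The gene with the highest ratio was Ccl1 (chromosome 11, 82176657 to 82305690, minus strand, mm10; ENSMUSG00000020702.13, protein coding), which encodes a chemokine that binds CCR8. Ccl1 had 9.99 to 366 CPM in the sets of stimulated cells, with a median of 70.0 CPM, against 0.502 to 9.77 CPM in other cells, with a median of 2.79 CPM. The log2 ratio was 4.88, and the sets did not overlap. Few cells carried this signal: 23 stimulated cells (3.12%) had a Ccl1 UMI, against 0.594% of other cells and 1.35% of the 518 cells with a Cd79a or Lyz2 UMI. A single cell held 87 of the 235 Ccl1 UMIs of stimulated cells. Without that cell the level was 63.9 CPM in place of 101 CPM, and the ratio of the pooled sets was 4.16. Ccr8, the receptor for CCL1, was itself among the highest genes. It had 23.8 to 50.3 CPM in stimulated cells and 4.58 to 12.1 CPM in other cells, with no overlap and a log2 ratio of 2.03.

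Areg encodes amphiregulin, an epidermal growth factor receptor ligand that tissue Treg cells use in repair. Areg had 17.0 to 46.6 CPM in stimulated cells (median 33.6) and 3.87 to 12.3 CPM in other cells (median 6.67), a log2 ratio of 2.33. The sets of the 2 groups did not overlap, and over 30 alternative analyses the ratio lay between 1.99 and 3.07 and the call was kept in 21. In the alternatives a call also needed a minimum of UMIs over both groups, 200 in most of them. A gene with few UMIs could therefore lose its call by count alone. Areg lost its call only with cells left out or with a minimum of 500 UMIs. Slc7a10 (chromosome 7, 35186385 to 35201114, plus strand, mm10; ENSMUSG00000030495.12, protein coding), an amino acid transporter gene, had 24.1 to 53.3 CPM (median 42.5) in stimulated and 5.81 to 10.3 CPM (median 7.89) in other cells, a log2 ratio of 2.32. Marcksl1, which encodes an actin- and calmodulin-binding protein, had 85.5 to 161 CPM in stimulated and 15.5 to 29.6 CPM in other cells, a log2 ratio of 2.25. Both were higher in every set, again without overlap. The remaining genes among the 15 highest were Nfkbid (2.16), the smooth muscle actin gene Actg2 (1.94), the phosphatase gene Dusp14 (1.90), the transcription factor gene Nfil3 (1.87), the inhibitory receptor gene Lag3 (1.84), the transcription factor gene Bhlhe40 (1.82), the endosome tether gene Eea1 (1.82), Pdzk1ip1 (1.78), the zinc finger gene Tshz2 (1.75) and Pdcd1lg2 (1.74), which encodes the PD-1 ligand PD-L2. Of these, only Pdzk1ip1 had overlapping sets, with 13.3 to 88.6 CPM in stimulated and 6.33 to 21.1 CPM in other cells. The Dusp14 call was kept in 20 of 30 alternative analyses, with ratios of 1.59 to 2.505, and was lost in the same kinds of setting as Areg.

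**Figure D2:**
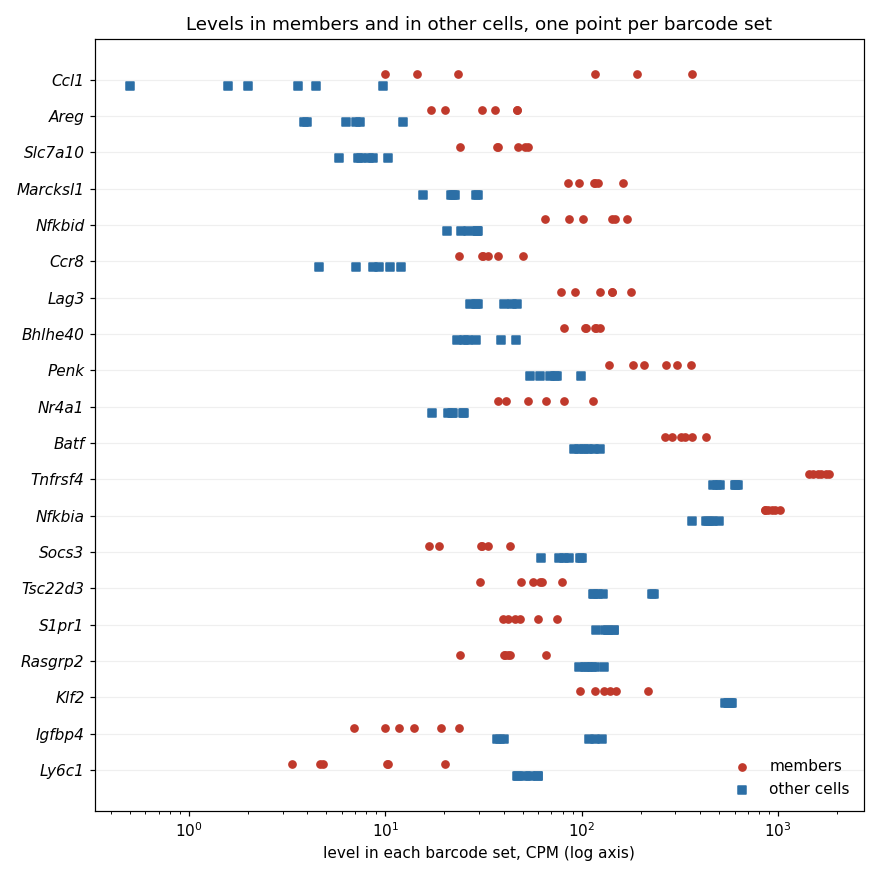
Level of 20 genes (CPM, log axis) in each of the 6 barcode sets, with 1 red point per set for members (the stimulated cells) and 1 blue square per set for other cells. From Ccl1 down to Nfkbia every red point lies right of every blue square of its gene, and from Socs3 down to Ly6c1 every red point lies left.

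Of 19 measured genes known to respond to the TCR, outside the rule, 11 were higher and 0 lower in stimulated cells, and the median log2 ratio was 0.92. Nr4a1 (chromosome 15, 101254269 to 101274795, plus strand, mm10; ENSMUSG00000023034.7, protein coding), which encodes the nuclear receptor Nur77, a reporter of recent TCR signalling, had 37.4 to 114 CPM in stimulated cells (median 59.4) and 17.2 to 25.02 CPM in other cells (median 21.95). Its log2 ratio was 1.65, and the sets did not overlap. Batf, an AP-1 family factor that pairs with IRF4 in effector Treg cells, had 267 to 429 CPM in stimulated cells (median 329) and 90.8 to 124 CPM in other cells (median 105), a log2 ratio of 1.61. Bhlhe40 had 81.6 to 123 CPM against 23.2 to 46.1 CPM. Every set of stimulated cells thus lay above every set of other cells for these 3 genes. Also higher were the interferon regulatory factor gene Irf8 (1.51), the MAP kinase pathway inhibitor gene Spry1 (1.28), Orai1 (1.18), which encodes the calcium channel opened by TCR signalling, Tox2 (1.12), Egr1 (0.96), Nab2 (0.92), a corepressor of EGR factors, Tox (0.70) and the phosphatase gene Dusp2 (0.64). Egr1 sets overlapped, with 31.0 to 89.9 CPM in stimulated and 27.4 to 41.8 CPM in other cells, and the Egr1 call was kept in 21 of 30 alternative analyses. The Spry1 call was kept in 22 and the Dusp2 call in 23. Spry1 lost its call only with cells left out or with a minimum of 500 UMIs.

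Other well known response genes did not pass the rule. Cd69, an early activation marker, had 132 to 215 CPM in stimulated and 101 to 130 CPM in other cells, a log2 ratio of 0.48 that was positive in 6 of 6 sets but below 1.5-fold. Myc, which drives growth after stimulation, was at 0.69 and higher in 5 of 6 sets. The NFAT gene Nfatc1 was at 0.51, and Cd5, a surface gauge of TCR signal strength, was at 0.02. Other members had too few UMIs to be measured. Irf4, which encodes the partner of BATF, had 64 UMIs in stimulated cells, 27.5 CPM (21.2 to 35.1), against 129 UMIs in other cells, 5.97 CPM (4.99 to 7.10). Nr4a2 had 43 UMIs, 18.5 CPM (13.4 to 24.9), against 50 UMIs, 2.32 CPM (1.72 to 3.05). Nr4a3 had 15.9 CPM against 6.53 CPM, and Egr3 2.58 CPM against 1.07 CPM.

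Of 28 measured genes of the TCR complex, its proximal kinases and their inhibitors, 1 was higher and 1 lower, close to the shares over all measured genes, and the median log2 ratio was 0.11. The kinase gene Zap70 had 253 to 316 CPM in stimulated and 139 to 167 CPM in other cells (log2 ratio 0.84). Dgka, whose product removes the second messenger diacylglycerol and so dampens the TCR signal, had 78.8 to 130 CPM in stimulated and 158 to 191 CPM in other cells (log2 ratio -0.71). Neither gene's sets overlapped. Cd3e stood at a log2 ratio of 0.23, Cd4 at 0.35 and the phosphatase gene Ptpn6 at 0.48.

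Of 26 measured NF-kB pathway genes, 10 were higher and 0 lower, with a median log2 ratio of 0.47. Nfkbid, which encodes the nuclear inhibitor IκBNS, known to promote Foxp3 expression in developing Treg cells, had 65.3 to 171 CPM in stimulated cells (median 122) and 20.6 to 29.8 CPM in other cells (median 27.8). Nfkbia (chromosome 12, 55489410 to 55492647, minus strand, mm10; ENSMUSG00000021025.8, protein coding), which encodes the feedback inhibitor IκBα, had 856 to 1020 CPM in stimulated cells (median 911) and 366 to 499 CPM in other cells (median 446), a log2 ratio of 1.04. The sets of both genes were apart. The subunit genes Rel (1.24), Nfkb2 (1.11) and Relb (0.85) were higher, as were the adhesion gene Icam1 (0.92), a known target, the deubiquitinase gene Tnfaip3 (0.78), Tank (0.73), Nfkbib (0.69) and Nfkbie (0.66). The subunit genes Nfkb1 (0.49) and Rela (0.07), the inhibitor genes Nfkbiz (0.62) and Bcl3 (0.34), the kinase gene Ikbkb (-0.29) and the adaptor genes Malt1 (0.01) and Bcl10 (0.45) did not pass the rule.

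To show the sequence at the starts of genes that were higher in stimulated cells, 4 windows of 250 bases upstream of a RefSeq start site (GRCm38.p6) follow, each 5′ to 3′ on the gene's strand and ending at the base before the start, with the letters of a searched motif in capitals. The windows lie at chr11:82179813-82180062 (minus strand) for Ccl1, chr12:55492648-55492897 (minus strand) for Nfkbia, chr15:101266596-101266845 (plus strand) for Nr4a1 and chr7:35186135-35186384 (plus strand) for Slc7a10. Those of Ccl1 and Nr4a1 lie inside the GENCODE span of the gene given above, which also holds transcripts that start further upstream.
Ccl1: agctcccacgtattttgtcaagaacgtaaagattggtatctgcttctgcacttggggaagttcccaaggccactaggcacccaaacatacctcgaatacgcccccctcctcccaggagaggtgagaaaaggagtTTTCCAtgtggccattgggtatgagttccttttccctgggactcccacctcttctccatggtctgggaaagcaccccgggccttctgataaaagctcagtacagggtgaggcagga
Nfkbia: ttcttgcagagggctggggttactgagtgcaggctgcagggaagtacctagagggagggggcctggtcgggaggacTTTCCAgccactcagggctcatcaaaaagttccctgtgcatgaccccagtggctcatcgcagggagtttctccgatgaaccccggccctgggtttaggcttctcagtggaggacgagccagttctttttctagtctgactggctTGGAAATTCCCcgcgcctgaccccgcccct
Nr4a1: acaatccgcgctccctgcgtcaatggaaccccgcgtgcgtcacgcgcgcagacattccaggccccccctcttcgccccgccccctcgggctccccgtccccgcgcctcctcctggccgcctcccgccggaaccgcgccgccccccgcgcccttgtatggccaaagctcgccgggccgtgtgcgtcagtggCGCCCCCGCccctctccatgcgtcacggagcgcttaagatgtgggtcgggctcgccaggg
Slc7a10: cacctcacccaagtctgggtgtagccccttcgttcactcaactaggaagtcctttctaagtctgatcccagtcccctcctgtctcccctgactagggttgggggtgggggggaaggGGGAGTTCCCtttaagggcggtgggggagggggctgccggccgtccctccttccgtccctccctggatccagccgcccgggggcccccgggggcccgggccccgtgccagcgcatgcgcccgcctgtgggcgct

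The capitals mark an NFAT motif (TGGAAA) that begins 116 bases before the Ccl1 start, and an EGR motif (GCGNGGGCG) 60 bases before the Nr4a1 start, both on the opposite strand. In the Slc7a10 window they mark an NF-kB motif 134 bases before the start. The Nfkbia window holds NFAT motifs 174 and 30 bases before the start and an NF-kB motif at 29 bases that overlaps the nearer NFAT motif. Both strands were searched. Of all 32851 promoter windows of this length, 3.90% held the NF-kB motif, 6.75% the AP-1 motif TGANTCA, 4.70% the EGR motif and 18.6% the NFAT motif. Among the 7296 windows of measured genes the shares were 4.59%, 3.96%, 8.61% and 14.8% in the same order. Of the 15 highest genes, 12 matched the RefSeq table, with 14 windows, of which 3 held an NF-kB motif, 0 an AP-1 motif, 1 an EGR motif and 3 an NFAT motif. Of the 15 lowest genes, 10 matched, also with 14 windows, of which 1, 1, 2 and 3 held these motifs in the same order. A match is a description of these letters only.

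TNF receptor family genes, which relay costimulation to NF-kB, had 6 of 16 measured members higher and 0 lower (median log2 ratio 0.38). Tnfrsf4, which encodes the costimulatory receptor OX40, had 1431 to 1807 CPM in stimulated cells (median 1631) and 465 to 628 CPM in other cells (median 554), a log2 ratio of 1.57. Tnfrsf18, which encodes GITR, had 747 to 895 CPM against 448 to 586 CPM (0.69). For both receptors all stimulated sets were above all others. The ligand genes Tnfsf14 (1.36), Tnfsf11 (0.97), which encodes RANKL, and Tnfsf8 (0.96), and the receptor gene Tnfrsf1b (0.65), which encodes TNFR2, were higher too. Cd27 was at -0.14 and Ltb, which encodes lymphotoxin beta, at -0.21.

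Costimulatory and inhibitory receptors had 7 of 15 measured members higher and 0 lower (median 0.45). Lag3, an inhibitory receptor for MHC class II, had 78.2 to 178 CPM in stimulated cells (median 133) and 27.1 to 47.0 CPM in other cells (median 35.0). Pdcd1, which encodes PD-1, had 126 to 231 CPM in stimulated and 54.4 to 89.6 CPM in other cells, a log2 ratio of 1.32. Neither overlapped. Cd160 (1.66), Cd200 (1.21), Btla (0.87), the PD-1 ligand gene Cd274 (0.72) and the adhesion receptor gene Cd44 (0.60) were also higher, the Cd44 call being kept in 16 of 30 alternative analyses. Ctla4, a core inhibitory receptor of Treg cells, had 102 to 154 CPM in stimulated and 78.6 to 130 CPM in other cells, which overlapped (0.45). Icos stood at 0.42, Tigit at 0.40 and Cd28 at -0.32. In a list of follicular T cell genes, which partly repeats these receptors, 4 of 6 measured members were higher: Pdcd1, Cd200, Tox2 and the B cell follicle homing receptor gene Cxcr5 (0.90), whose call was kept in 22 of 30 alternative analyses. Sostdc1, a marker of follicular T cells, was at 2.41 but higher in 5 of 6 sets, and 18 stimulated cells carried its UMIs. A single cell held 22.6% of them, the ratio of the pooled sets without it was 1.92, and over the alternatives the ratio lay between 0.55 and 3.07, the lowest being that with the rule on thinned cells.

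Among genes of secreted factors, 5 of 12 measured were higher and 1 lower (median 0.49). Penk, which encodes the opioid precursor proenkephalin, had 138 to 360 CPM in stimulated cells (median 238) and 54.7 to 99.4 CPM in other cells (median 71.1), with no overlap and a log2 ratio of 1.68. Nrn1, which encodes neuritin, was at 1.34. Ebi3 (0.90), a subunit gene of interleukin-35, and Tgfb1 (0.70) were higher as well. Fgl2, a suppressive fibrinogen-like factor, was lower (-0.87). Gzmb, which encodes the cytotoxic protease granzyme B, had 1 UMI in stimulated cells, 0.43 CPM (0.0109 to 2.40), and 170 UMIs in other cells, 7.87 CPM (6.73 to 9.15). The rule bars Ccl5 UMIs from stimulated cells, whereas the other cells include cells with Ccl5, in which Gzmb was high. Over the alternative analyses, including that with Ccl5 cells left out of the other cells, the Gzmb log2 ratio lay between -4.54 and -2.08 where defined. How far the Ccl5 limit accounts for the low Gzmb level was not tested.

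Of 19 measured Treg identity genes, 4 were higher and 1 lower, and the median log2 ratio was 0.17. Itgb8, an integrin subunit that activates TGF-beta, had 30.6 to 51.7 CPM in stimulated and 10.0 to 24.5 CPM in other cells, a log2 ratio of 1.42 with no overlap. Ebi3, Tgfb1 and Swap70 (0.82) were the other higher genes, and the cytokine signal inhibitor gene Socs2 (-0.80) was lower. Il2ra, which encodes the interleukin-2 receptor alpha chain, was at -0.11, Il2rb at 0.19, Nrp1 at 0.05 and the gene of GARP, Lrrc32, which anchors latent TGF-beta, at -0.26. With a stricter rule (5 or more UMIs from at least 3 genes), 1 identity gene was higher.

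Of 17 measured genes of resting, lymphoid-homing T cells, 11 were lower and 0 higher, with a median log2 ratio of -1.03. Klf2 (chromosome 8, 72319033 to 72321656, plus strand, mm10; ENSMUSG00000055148.7, protein coding) had 97.9 to 217 CPM in stimulated cells (median 134) and 536 to 580 CPM in other cells (median 562), a log2 ratio of -2.01. S1pr1, the receptor that guides lymphocytes out of lymphoid organs, had 39.6 to 74.8 CPM in stimulated and 118 to 146 CPM in other cells (-1.46). For both, the highest stimulated set lay below the lowest set of other cells. Ly6c1 had 3.33 to 20.1 CPM in stimulated and 47.1 to 59.6 CPM in other cells (-2.42), though reads of its near-identical neighbour Ly6c2 may be split between them. Igfbp4, a binding protein of insulin-like growth factors, had 6.90 to 23.8 CPM in stimulated and 37.1 to 126 CPM in other cells (-2.38). The homing receptor gene Ccr7 (-0.96), the kinase gene Txk (-1.07), the chromatin organizer gene Satb1 (-1.03) and the transcription factor gene Lef1 (-0.74) were lower, as were Treml2 (-1.40) and Nsg2 (-0.76). Tcf7 was at -0.19 and Il7r at -0.39, and neither passed the rule.

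The number of resting genes called depended on which cells were among the other cells. When cells with 3 or more UMIs from at least 2 of 5 resting genes, Ccr7, Igfbp4, Satb1 and Ly6c1 among them (resting-like cells) were removed from the other cells, 4 resting genes were lower in place of 11. Igfbp4 then stood at -0.67 and Ly6c1 at -0.81, while the Klf2 and S1pr1 calls were kept in all 30 alternative analyses. Igfbp4 and Ly6c1 helped to define the removed cells.

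Of 18 measured quiescence and glucocorticoid-induced genes, 6 were lower and 0 higher (median -0.28). Besides Klf2, Tsc22d3, which encodes the glucocorticoid-induced protein GILZ, had 30.2 to 79.3 CPM in stimulated cells (median 58.9) and 114 to 232 CPM in other cells (median 125), a log2 ratio of -1.48. Txnip, an inhibitor of glucose uptake, was at -1.15, the PI3-kinase inhibitor gene Pik3ip1 at -0.94, the cell cycle inhibitor gene Cdkn2d at -0.85 and Klf3 at -0.70. Among chemokine and migration receptors 2 of 17 were higher, Ccr8 and Cxcr5, and 5 lower (median -0.11). The lower ones were Ccr2 (-1.63), S1pr1, the selectin ligand gene Selplg (-1.01), S1pr4 (-0.97) and the integrin gene Itgb7 (-0.69). Ccr2 sets overlapped, with 0 to 18.7 CPM in stimulated and 12.7 to 43.6 CPM in other cells. Rasgrp2 (-1.40), an activator of the small GTPase Rap1 and so of integrins, had 24.1 to 65.5 CPM in stimulated and 97.1 to 129 CPM in other cells. Also among the 15 lowest genes were Fam101b (-1.59), the small GTPase gene Arl4c (-1.40) and the predicted or unnamed genes Gm4070 (-2.12), Gm11713 (-1.50) and G430095P16Rik (-1.34).

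Tissue effector Treg genes went both ways, with 5 of 26 higher and 6 lower (median -0.04). Higher were Areg, Ccr8, the inhibitory receptor gene Lilrb4a (1.15), Asb2 (0.65) and Gata3 (0.59), a transcription factor of tissue Treg cells, of which the Asb2 call was kept in 15 and the Gata3 call in 19 of 30 alternative analyses. Lower were Ccr2, Il1rl1 (-1.30), which encodes the interleukin-33 receptor ST2, the galectin-3 gene Lgals3 (-1.28), Crip1 (-1.08), the calcium-binding protein gene S100a4 (-0.94) and the vimentin gene Vim (-0.75). S100a4 had 37.4 to 173 CPM in stimulated and 110 to 244 CPM in other cells, which overlapped.

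**Figure D3:**
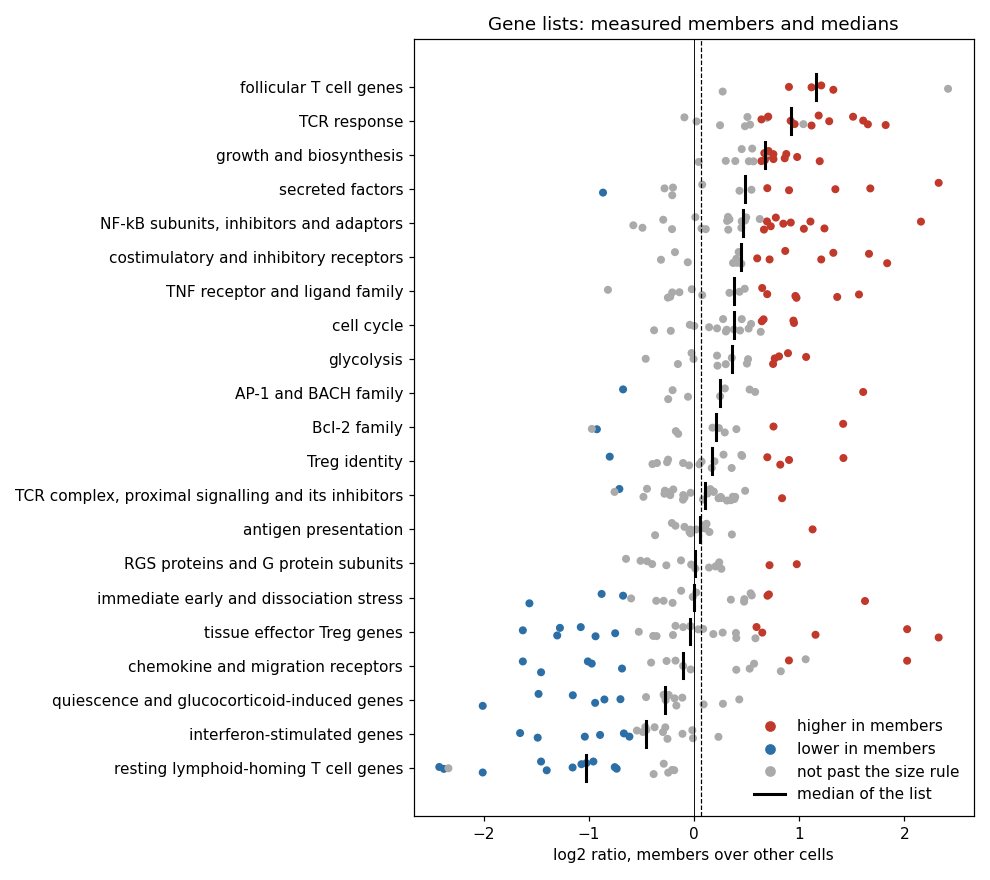
Log2 ratio of members (the stimulated cells) over other cells (x axis) for each measured gene of 21 gene lists (y axis), with red points past the rule and higher, blue points past the rule and lower, grey points not past the rule, and a black bar at each list's median. The dashed line marks the median of all 7391 measured genes (0.07). The resting list lies furthest left (median -1.03), and the follicular (1.16) and TCR response (0.92) lists furthest right.

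Of 19 measured genes of ribosome biogenesis, translation and biosynthesis, 11 were higher and 0 lower (median 0.67). Srm, which encodes spermidine synthase, had 55.4 to 101 CPM in stimulated and 23.9 to 39.6 CPM in other cells, a log2 ratio of 1.19 without overlap. Odc1, the first enzyme of polyamine synthesis, had 107 to 200 CPM against 54.4 to 90.5 CPM (0.98). The nucleolar genes Nop58 (0.88), Nolc1 (0.75), Ncl (0.69), Nop56 (0.67) and Fbl (0.64) were among the others. With the rule applied to cells thinned to 1000 UMIs, which left 231 stimulated cells, 5 growth genes were higher and the median was 0.56, and over all alternatives the median lay between 0.52 and 0.82. Of 15 glycolysis genes, 5 were higher and 0 lower (median 0.36): Tpi1 (1.06), Pgam1 (0.89), Hif1a (0.81), the oxygen-regulated factor that induces this pathway, Gapdh (0.77) and Pgk1 (0.75). Glucose transporter genes Slc2a1 (-0.03) and Slc2a3 (-0.46) did not pass the rule.

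Cell cycle genes had 4 of 19 members higher and 0 lower (median 0.38), namely Mcm3 (0.95), Mcm5 (0.94) and Mcm6 (0.66) of the replicative helicase and the replication clamp gene Pcna (0.64). The mitotic genes Ccnb2 (-0.38), Top2a (0.22) and Birc5 (0.31) did not pass. With the ratio stratified by UMIs per cell, 0 of these genes were called and the median was -0.18. With the rule on thinned cells 0 were called as well. In all, 18 stimulated cells (2.44%) and 96 other cells (1.02%) had 2 or more UMIs of mitotic genes.

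Of 18 measured interferon-stimulated genes, 6 were lower and 0 higher (median -0.46): Oasl2 (-1.66), Ifit3 (-1.49), Usp18 (-1.04), Ifit1 (-0.90), Slfn1 (-0.67) and Irf7 (-0.62). The Oasl2 call was kept in 17 and the Irf7 call in 19 of 30 alternative analyses. Ifit1 had 12.04 to 45.3 CPM in stimulated and 37.8 to 67.3 CPM in other cells, which overlapped, and Isg15 was at 0.23. Without the deepest cells and cells with UMIs of other cell types, 2 were lower. Among 10 measured Bcl-2 family genes, the anti-apoptotic Bcl2l1 (1.42), which encodes BCL-xL, had 26.5 to 68.0 CPM in stimulated and 12.7 to 20.5 CPM in other cells. The anti-apoptotic Bcl2 (-0.93) had 173 to 262 CPM in stimulated and 311 to 436 CPM in other cells. These relatives thus went in opposite directions, each without overlap. The pro-apoptotic Pmaip1 (0.75) was called higher but kept that call in 10 of 30 alternative analyses, and Bcl2l11, which encodes BIM, was at -0.97 without passing the rule.

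Immediate early and dissociation stress genes, which can also be induced by handling of tissue, had 3 of 18 members higher and 3 lower (median 0.00). Gadd45b (1.62), a stress gene and NF-kB target, had 88.6 to 122 CPM in stimulated and 24.8 to 42.6 CPM in other cells. Ier5 (0.71) and Hsp90aa1 (0.70) were higher, while Socs3 (-1.57), an inhibitor of cytokine signalling, Klf6 (-0.88) and Jun (-0.68) were lower. Fos stood at -0.21 and Hspa1a at -0.60. In the AP-1 and BACH family, whose members share the DNA sites that BACH2 competes for, 1 of 9 was higher, Batf, and 1 lower, Jun, with Junb at 0.58 and Jund at 0.29 (median 0.25). Of 15 RGS and G protein genes, Gnaq (0.98) and Rgs3 (0.72) were higher, 0 were lower and the median was 0.01. Rgs1, a relative of the defining Rgs16, had 171 to 276 CPM in stimulated and 264 to 360 CPM in other cells (-0.51). Among 16 antigen presentation genes, only Cd74 (1.13) was called, and the median was 0.05.

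Many of these levels ran in one direction with the number of defining UMIs, also below the threshold of the rule. Among cells without a Ccl5 UMI, 5257 had a sum of 0, 1867 of 1, 646 of 2, 424 of 3 to 4, 242 of 5 to 7 and 171 of 8 or more. Tnfrsf4 stood at 422, 568, 801, 1270, 1627 and 2198 CPM in these groups, from the lowest sum to the highest. Nr4a1 stood at 16.6, 20.5, 30.03, 49.5, 57.7 and 117 CPM. Klf2 stood at 674, 500, 332, 198, 121 and 91.9 CPM. Ccl1 behaved differently, with 2.18, 2.05, 5.63, 11.5 and 14.4 CPM up to a sum of 7. It stood at 308 CPM (268 to 352) at 8 or more, the group that holds 211 of its UMIs. Of these 211 UMIs, 87 came from a single cell. Foxp3 stood between 20.6 and 23.0 CPM up to a sum of 4, then at 17.1 and 14.6 CPM. Median depth also moved with the sum, at 2024, 2081, 2153, 2301.5, 2699 and 3254 UMIs per cell, and its part in these levels was not tested.

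**Figure D4:**
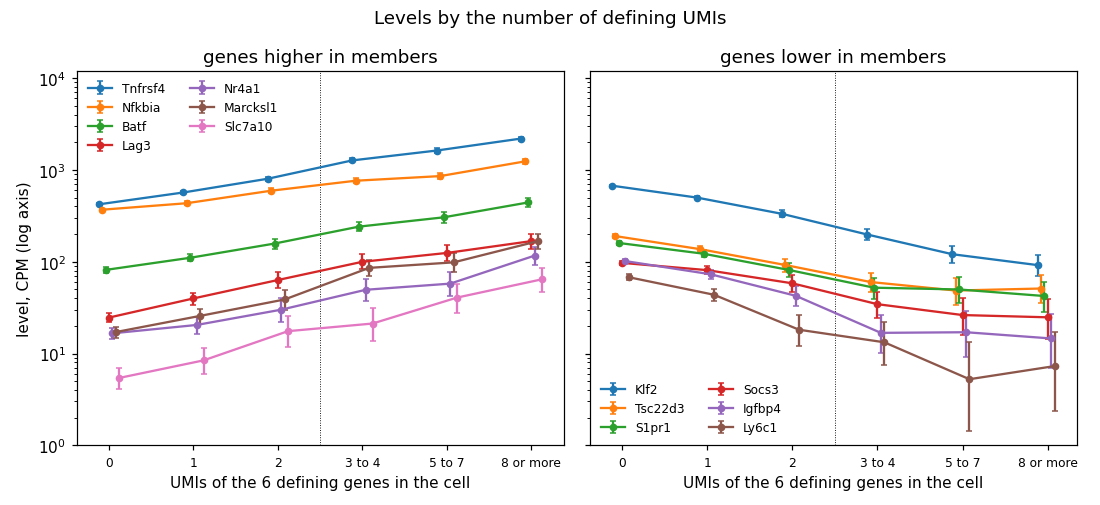
Level (CPM, log axis) in cells grouped by their number of UMIs of the 6 defining genes (x axis), with 95% exact Poisson intervals, for 7 genes higher in members (left) and 6 lower in members (right). The dotted line marks the threshold of 3 UMIs. Tnfrsf4 runs up to 2198 CPM and Klf2 down to 91.9 CPM at 8 or more UMIs, and both move in the same direction on either side of the line.

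Stimulated cells are next described by which defining gene they carried. The rule fixes part of these splits, since a cell without 1 defining gene had to carry others, so they are descriptions that support nothing further. In each split, 1466 genes had enough UMIs to be measured, and cells with a UMI of 1 defining gene were set against those without. Cells with Egr2 (138 against 600) had 13 genes higher (0.887%) and 3 lower (0.205%). The 13 higher genes were Tagap, a T cell activation GTPase-activating protein gene, at 255 against 88.1 CPM (log2 ratio 1.54), Ier2 at 372 against 161 CPM (1.20), Cd69 at 290 against 128 CPM (1.20), Hnrnpll (1.11), Rheb (0.83), Dusp2 (0.82), Pdcd1lg2 (0.79), Rel (0.77), Prpf4b (0.69), Hif1a (0.67), Rilpl2 (0.64), Dnajb6 (0.62) and Eea1 (0.59). Cells with Tnfrsf9 (503 against 235) had 19 genes higher (1.3%) and 4 lower (0.273%). Among the higher ones were Nhp2 at 232 against 116 CPM (1.003), Gar1 at 131 against 66.8 CPM (0.98), Ddx21 at 203 against 110 CPM (0.86) and Ncl at 694 against 411 CPM (0.74), which encode nucleolar proteins. The transcription factor gene Maf was lower, at 157 against 266 CPM (-0.72).

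Cells with Cd83 (485 against 253) had 6 genes higher (0.409%) and 2 lower (0.136%). The NF-kB genes Nfkbia, at 1092 against 568 CPM (0.93), and Nfkb2, at 105 against 58.8 CPM (0.84), were higher, and S100a4 was lower, at 62.2 against 180 CPM (-1.55). Cells with Bcl2a1d (472 against 266) had 9 genes higher (0.614%) and 0 lower (0%). Among them were S100a4 at 127 against 51.4 CPM (1.23), S100a6 at 264 against 116 CPM (1.17) and Nfkbid at 148 against 64.9 CPM (1.20). Cells with Il1r2 (302 against 436) had 11 genes higher (0.75%), among them the glycolysis genes Tpi1, at 161 against 71.2 CPM (1.17), Pkm (0.60) and Pgam1 (0.60), and 2 lower (0.136%), among them Ctla4 at 103 against 163 CPM (-0.66). Those Il1r2 cells were deeper, with a median of 3002.5 against 2331.5 UMIs. Cells with Rgs16 (227 against 511) had 5 genes higher (0.341%) and 3 lower (0.205%). Both Pdcd1lg2, at 136 against 77.2 CPM (0.84), and Pdcd1, at 235 against 152 CPM (0.69), the genes of the PD-1 ligand PD-L2 and of PD-1, were among the higher. The genes given in these splits were named after their values were seen, and each share in brackets is the share of measured genes called in that split.

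Against 3 other states of the same sort, stimulated cells stood apart in different genes. These were 568 cells with 2 or more Ccl5 UMIs, 250 cells with 5 or more UMIs of at least 3 of S100a4, Ccr2, S100a6, Cxcr6 and Lgals3, and 1265 resting-like cells, with 81 cells in more than 1 of these states left out. All 3 states were drawn from the other cells, so none held a stimulated cell. Cells that met the UMI rule but carried a Ccl5 UMI could be among them. Median depth was 2596.5 UMIs in stimulated, 1917 in Ccl5, 2280.5 in S100a4 Ccr2 and 2951 in resting-like cells. Nr4a1 stood at 71.4 CPM (60.9 to 83.1) in stimulated cells, against 25.8 (17.7 to 36.5), 18.3 (9.74 to 31.3) and 17.8 CPM (13.9 to 22.4) in the Ccl5, S100a4 Ccr2 and resting-like cells. Batf stood at 326 CPM in stimulated cells, against 142, 117 and 55.4 CPM. The counting intervals of the stimulated cells lay above those of each other state for both genes. Klf2 ordered the states otherwise. It was at 140 CPM (125 to 156) in stimulated and 276 CPM (247 to 307) in Ccl5 cells, but at 1291 CPM (1209 to 1377) in S100a4 Ccr2 cells and 751 CPM (724 to 778) in resting-like cells. S1pr1 ran alike, with 49.5, 63.7, 219 and 192 CPM.

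Bach2 was at 24.9 CPM (18.9 to 32.2) in stimulated and 24.2 CPM (16.3 to 34.6) in Ccl5 cells, 11.3 CPM (4.86 to 22.2) in S100a4 Ccr2 cells and 46.8 CPM (40.4 to 54.0) in resting-like cells. Its intervals overlapped among all states but the resting-like one. Areg was at 32.3 CPM (25.4 to 40.4) in stimulated and 24.2 CPM (16.3 to 34.6) in Ccl5 cells, which overlapped, and at 1.24 CPM in resting-like cells. Gzmb was at 0.43 CPM (0.0109 to 2.40) in stimulated cells, against 42.8 CPM (32.0 to 55.9) in Ccl5 cells, which the rule bars, and 56.3 CPM (40.2 to 76.6) in S100a4 Ccr2 cells. Slc7a10 was at 40.0 CPM in stimulated cells and at 8.07, 5.63 and 2.23 CPM in the others, and Actg2 at 62.4 CPM against 11.3, 14.1 and 8.17 CPM. The 188 cells that met the UMI rule but carried a Ccl5 UMI had 76.1 CPM of Nr4a1, 1485 CPM of Tnfrsf4, 169 CPM of Klf2, 91.7 CPM of Lag3, 87.4 CPM of Nfkbid and 28.2 CPM of Ccl1, against 71.4, 1652, 140, 126, 122 and 101 CPM in stimulated cells.

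**Figure D5:**
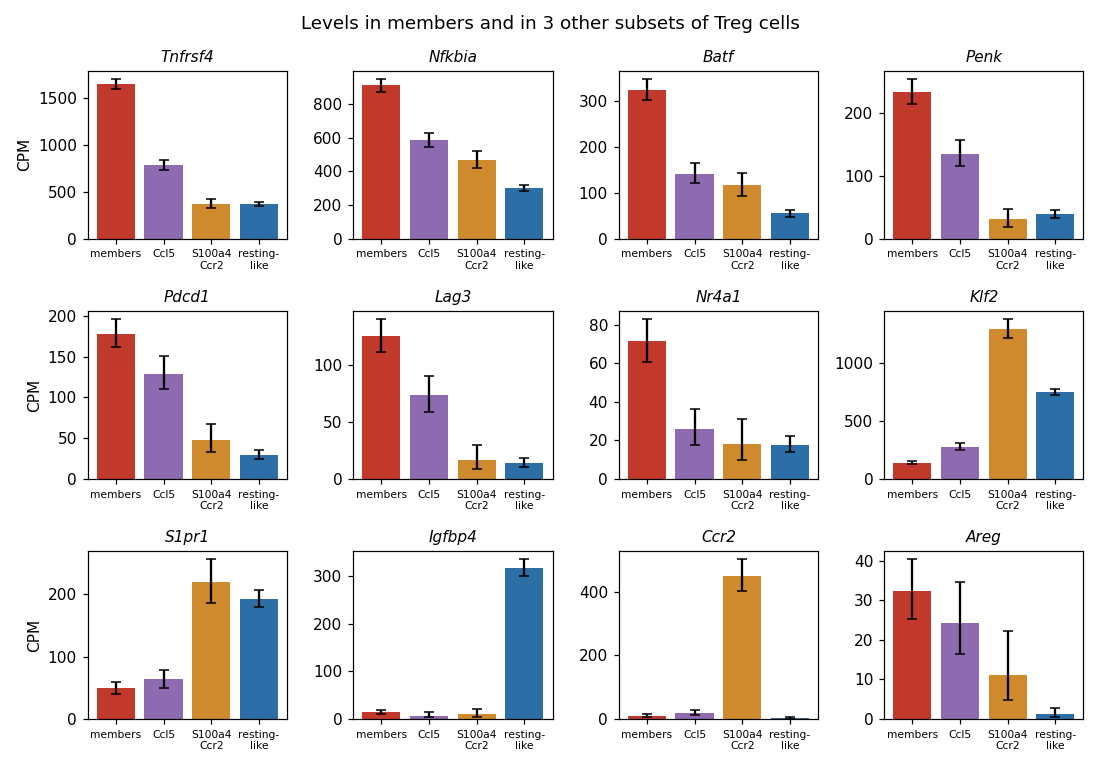
Levels (CPM, y axis, from 0) of 12 genes in members (the stimulated cells, red), Ccl5 cells (purple), S100a4 Ccr2 cells (orange) and resting-like cells (blue), pooled over the 6 sets, with 95% exact Poisson intervals as bars. Ccr2 and Igfbp4 helped to define the orange and blue groups. Klf2 is lowest in members (140 CPM) and highest in S100a4 Ccr2 cells (1291 CPM).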

How the data were processed

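The 6 samples were splenic EGFP+ cells, enriched for CD4 and sorted, then captured with 10x Genomics 3′ v2 chemistry, per the labels. The authors deposited raw counts of UMIs for 14098 genes in 10685 cells and a natural log table of 10464 of them. That table equals the natural log of 1 plus the count per 10000 UMIs of the cell, and it held 719 of the 738 stimulated cells. It was used only as a cell filter. The submitters' processing notes name FastQC, cutadapt, HISAT2, Cell Ranger, Seurat and the mm10 build. Each sample's depth could not be given, since the 10685 cell columns carry no name that ties them to a sample, and they were used by barcode suffix only. The sets held 1641 to 1902 cells.

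From the counts, CPM with 95% exact Poisson intervals, shares with exact Clopper-Pearson intervals and Mantel-Haenszel ratios stratified by set were computed with Python 3.11.15, numpy 2.4.6, scipy 1.17.1 and pandas 2.3.3, with 0.5 UMIs added per set for the direction in each set. Figures were drawn with matplotlib 3.10.9. Scripts were tested on simulated data. Thinning used seed 1. Genes named were the 15 highest and 15 lowest past the rule with at least 20 CPM in a group, up to 4 of each list with at least 100 UMIs and the largest ratio, Foxp3 and Bach2. Further list members were named after their values were seen. The near-identical paralogs Bcl2a1a and Bcl2a1b were left out. No doublet caller was run, and a setting without the deepest 2% of cells was tried instead. The stimulated cells and all gene lists were chosen with earlier results of these data known. Gene positions are from GENCODE M21 (115 of 116 named genes matched). List genes outside the table were not analysed here. A few genes of the lists are counted but not reported here by name.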

Additional observations from a re-analysis of the deposited data

How the results depend on the processing

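The share of stimulated cells (7.26%) moved with the rule and with depth. It was 2.34% with cells thinned to 1000 UMIs, 0.866% with 500 UMIs, 11.3% with a sum of 2 or more from at least 2 genes, 5.06% with 4 or more, 2.91% with 5 or more from at least 3 genes, and 6.67% without the deepest cells and those with UMIs of other cell types. Leaving out 1 barcode set at a time gave 6.72 to 7.62%. With 1 set left out, where 5 sets had to share a direction, 410 to 448 genes were higher and 228 to 246 lower. Of the 411 higher and 215 lower genes of the main analysis, 349 to 371 and 187 to 197 were among them. In the gene lists, 73 to 78 were then higher and 37 to 40 lower, against 75 and 38. The count of lower genes was 134 with a sum of 2 or more and 138 with the rule applied to thinned cells, for which the cause was not tested. Fewer of the 411 higher and 215 lower genes were shared under such settings. With the rule on thinned cells, which left 231 stimulated cells, 217 and 80 were shared. With a sum of 2 or more, 247 and 109 were shared, and with 5 or more from at least 3 genes, 299 and 122. With the ratio stratified by UMIs per cell, 331 and 175 were shared. Over 95 named genes and 30 alternatives, 2607 of 2848 ratios stayed within the 95% binomial counting interval of their ratio and 241 moved beyond it. For genes called in the main analysis, 0 ratios reversed. Genes not called were left out of that count, and some changed sign, such as Foxp3 (-0.527 to 0.191) and Bach2 (-0.711 to 0.001). List counts that moved by over 1.5 times were, for higher genes, Treg identity (1 to 6, against 4), growth (5 to 14, against 11) and cell cycle (0 to 6, against 4), and for lower genes resting (4 to 12, against 11), tissue effector (3 to 7, against 6) and interferon-stimulated genes (2 to 7, against 6). Other list counts of 5 or fewer moved by at most 3 genes.

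Removing resting-like cells from the other cells, scaling the rule to 2000 UMIs per cell and leaving out the cell with most UMIs were alternatives chosen after seeing the data. Igkc is not among the genes analysed here, so the setting on other cell types used the other genes named for it. No paired analysis was possible because the cell columns carry neither a sample nor a replicate number by which cKO could be paired with WT. The Mantel-Haenszel ratios compared stimulated and other cells within barcode sets. Levels given as a single CPM value per group were pooled over the sets, and differences in set make-up were not accounted for there. Such levels include those by number of defining UMIs, in the other states, in cells outside the rule and of single markers of other cell types. Depth limits low genes: Foxp3, with 40 UMIs in stimulated cells, and Irf4, with 64, could not be ordered finely between sets.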

Other observations

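The 188 cells that met the UMI rule and carried a Ccl5 UMI were in no comparison as stimulated cells. They numbered 15 to 56 per barcode set and had a median of 2925 UMIs. They had 186 CPM of Penk, 47.9 CPM of Ccr8, 25.4 CPM of Areg, 91.7 CPM of Lag3 and 28.2 CPM of Ccl1, against 234, 36.6, 32.3, 126 and 101 CPM in stimulated cells.

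Of the 738 stimulated cells, 19 were not in the authors' natural log table.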
